A study of Homo sapiens with 18 samples.

Results

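Cells that carried exogenous TRA2A (231T) were compared with control cells at the level of single exon parts and exon junctions. The comparison uses 6 of the 18 samples of the series, the 3 exon-level arrays of 231T and the 3 of control. Its members are the 684791 of 913055 exon-part (PSR) and junction (JUC) probe sets whose mean over the 9 exon-level arrays was at least 3.89 on the log2 scale. Of these, 435793 were exon parts and 248998 were junctions.

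All cells were MDA-MB-231, a cultured line derived from triple-negative breast cancer. The controls carried no treatment in their labels, and the 231T cells had received a TRA2A vector. All cells grew in DMEM with fetal bovine serum. The third group (PTX), kept with paclitaxel at 10 nM, entered the fits only through the shared spread and is given beside single results. The sources used here give neither the promoter of the vector, nor the number of clones, nor what the control cells carried. The descriptions of control replicates 2 and 3 name the line with a different last digit, but all other labels of these samples read MDA-MB-231. Whether replicate arrays had cultures of their own is not stated, so the p-values rest on array-to-array spread alone, which may be technical.

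TRA2A encodes transformer 2 alpha, an RNA-binding protein related to the SR proteins, which bind exonic sequences and help the spliceosome to choose splice sites. Its paralog TRA2B binds similar sequences, and splicing regulators of these families are known to regulate their own transcripts and each other's. A probe set for an exon part reports the RNA that contains this sequence. A junction probe set spans the place where exons are joined, so it reports RNA in which this joining took place. A splicing change can therefore appear in a single probe set, whereas a change in the amount of a transcript tends to appear in many probe sets of a gene.

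The values are deposited RMA log2 values (background corrected, normalized and summarised per probe set). Over the tested probe sets the array median was 5.62 ± 0.026 in 231T (SD, n = 3), against 6.02 ± 0.008 for control and 6.04 ± 0.033 for PTX. Each array was therefore centred on its median, and every exon-level difference given is 231T minus control after this centring. It lies 0.41 above the difference of the deposited values that are printed per array. Both tables of the series hold 2995 of the same IDs. On the 231T arrays 100% of these had the same value in both tables (within 1e-04), whereas on the control and PTX arrays at most 2.47% did, with a median offset of 0.167 to 0.187. The exon-level control and PTX values thus came from a processing that differed from that of the gene-level ones, and those of 231T did not; its part in the results was not tested. For the 1437 exon parts among these IDs, 782 (54.4%) were called with exon-level values and 771 (53.7%) with gene-level values. Of these, 616 were called in the same direction and 0 in opposite directions, and the differences correlated with r = 0.957 across exon parts. Both sets of values describe the same samples, with equal 231T values, so much of this agreement is built in. Between the tables the 231T minus control difference changed with an SD of 0.33 over IDs. The offsets of single IDs correlated with r = 0.70 to 0.76 between arrays, so the array-to-array spread does not hold them in full.

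TRA2A itself was higher on all 231T arrays. Its gene-level deposited values were 6.50, 7.15 and 6.95 in control, 8.32, 7.82 and 7.60 in PTX and 9.37, 9.42 and 9.19 in 231T. The 231T arrays lay above all others, and the PTX arrays lay above control. The difference was 2.54 (SE 0.23, limma adjusted p = 4.3e-04). At the exon level, 18 of 25 tested TRA2A exon parts were called higher and 1 lower, and 9 of 13 junctions were called higher and 0 lower. Over all exon parts 24% were called, 13.4% higher, and over all junctions 26.3% were called, 13.6% higher.

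The TRA2A probe sets did not all move alike. Exon part PSR07018755 read 7.82, 8.51 and 8.17 in control and 14.2, 14.6 and 14.5 in 231T (difference 6.68, SE 0.38, limma adjusted p = 4.5e-05). Junction JUC07009185 read 9.04, 9.18 and 10.3 in control and 14.7, 14.8 and 14.9 in 231T (difference 5.69, SE 0.36, limma adjusted p = 6.3e-05). Both groups were clearly apart in each. Against this rise, exon part PSR07018748 read 18, 17.70 and 17.98 in control and 16.6, 16.7 and 16.6 in 231T (difference -0.85, SE 0.23, limma adjusted p = 0.024). It was the 1 called TRA2A probe set that fell, and its deposited values exceed 16 on all 6 arrays. Exon part PSR07018750 had a difference of -0.03 (limma adjusted p = 0.96) between neighbours with a median difference of 4.76. The junctions JUC07009184 and JUC07009188 had differences of -0.59 (limma adjusted p = 0.21) and -0.31 (limma adjusted p = 0.67), while their neighbours rose by 4.33 and 3.94. Exon part PSR07018735 was high on 1 of the 231T arrays, at 15.3, against 6.95 and 7.18 on the others, and was not called.

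**Figure D1:**
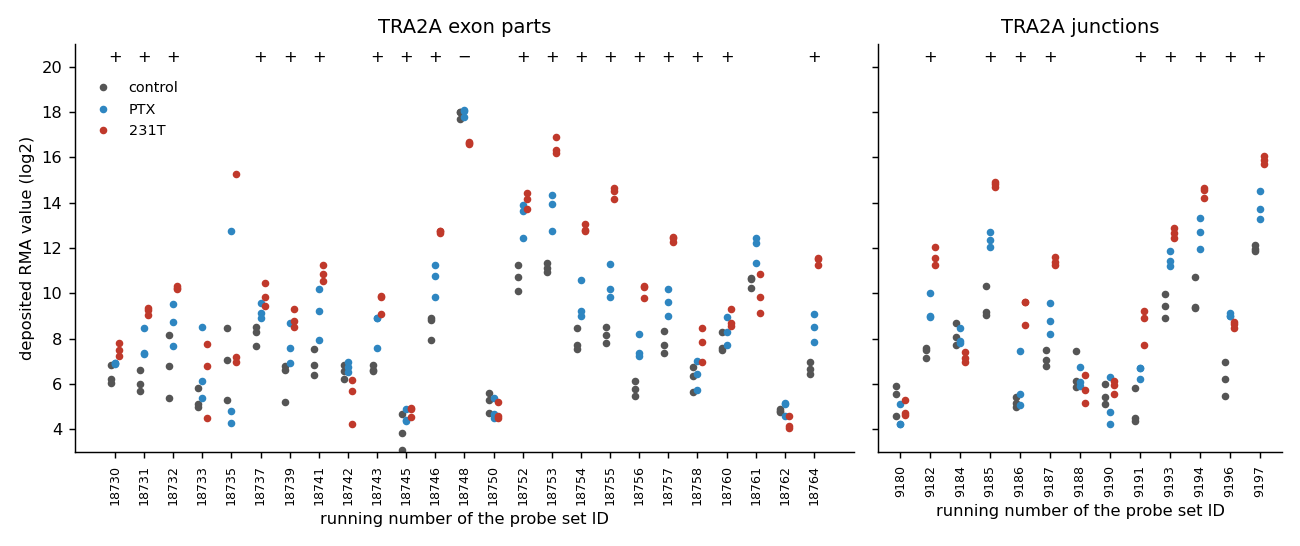
Deposited RMA values (log2, y axis) of each tested TRA2A exon part (left) and junction (right) on every control, PTX and 231T array, in order of the running number in the probe set ID (x axis). A plus or minus marks a probe set called higher or lower in 231T at a limma adjusted p under 0.05: 18 exon parts and 9 junctions are higher, and 1 exon part is lower.

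To summarise a gene, each probe set was set relative to its own mean over the 9 arrays, and the median over the gene's tested probe sets (at least 3) was taken per array, apart for exon parts and junctions. For TRA2A this exon-part median read -1.82, -1.12 and -1.26 in control, 0.31, -0.18 and -0.41 in PTX and 1.61, 1.91 and 1.20 in 231T. The difference between 231T and control was 2.98 (SE 0.24, limma adjusted p = 9.8e-06), and for the junction median it was 3.87 (SE 0.28, limma adjusted p = 4.5e-06). By this summary the junction median rose more than the exon-part median, by 0.90 (limma adjusted p = 0.0084), but the order of the classes rests on how a gene is summarised. With the median of the probe sets' levels in place of their deviations, both medians still rose, by 3.64 for exon parts and 2.53 for junctions, and the difference between the classes turned to -1.11 (limma adjusted p = 0.055).

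In all, 170090 of the 684791 probe sets were called (24.8%), 92014 higher (13.4%) and 78076 lower (11.4%). The direction of the split rests on the centring: with the deposited values as they stand, 58562 were higher and 158279 lower, so that 27.0% of calls were higher. Exon parts gave 104550 calls (58197 higher and 46353 lower) and junctions 65540 (33817 higher and 31723 lower). The median size of a difference was 0.78 for junctions and 0.54 for exon parts, and a called difference larger than 2 was found for 12.3% of junctions and 6.97% of exon parts. The spread between arrays of one group was also larger for junctions, with a median residual SD of 0.61 against 0.39. In 10 of 10 bins of brightness the junctions had both the larger difference and the larger spread, and in 5 of the 10 they were called more often. Weighted to the brightness of the exon parts, 23.6% of junctions were called.

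As a class, the junctions did not move apart from the exon parts beyond the spread. The junction median minus the exon-part median was 0.695, 0.729 and 0.674 on the control arrays and 0.651, 0.649 and 0.707 on the 231T arrays. The groups overlap, and the difference of -0.031 gave p = 0.3 in an exact two-sided permutation test, in which 3 arrays against 3 cannot go below 0.1. Per chromosome code, 0 of 23 codes were called by limma, with a lowest adjusted p of 0.0792 for code 13, 2 codes at an unadjusted p under 0.05 and 18 of 23 codes below 0. The result changed with the filter on low values. With probe sets under the 50th percentile of brightness (4.95) left out, the values were 0.396, 0.386 and 0.371 in control and 0.191, 0.184 and 0.351 in 231T, and with those under the 75th percentile (7.23) left out they were 0.151, 0.145 and 0.107 against -0.094, -0.138 and 0.015. In both, every 231T array lay below every control array, by -0.142 and -0.207 on average (exact p = 0.1 each, the smallest this design allows), and 231T replicate 3 was nearest to control. With either filter 10 of 23 codes were called lower and 23 of 23 lay below 0.

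Each called probe set was then set against the median of its 4 neighbours, the tested IDs before and after it of the same class and chromosome code. A call was isolated when the probe set's deviation from its neighbours was also called in the same direction and the neighbours' own change was not called. It was shared when the neighbours were called in the same direction and the deviation was not called in that direction. Shared calls thus include probe sets that moved less than their neighbours. Of 99201 called exon parts with neighbours, 40.9% were shared, 24.7% isolated and 2.32% opposed to neighbours that were called the other way. Of 60866 called junctions, 24.2% were shared, 37.2% isolated and 6.80% opposed. Over all probe sets with neighbours, the deviation was called for 14% of exon parts and 21.1% of junctions, and the neighbours' change for 26.9% and 27.8%. All neighbours carried the same gene symbol for 55.8% of exon parts and 62.3% of junctions.

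Junction calls thus deviated from their neighbours more often than exon-part calls. In total 33.2% of exon-part calls and 49.5% of junction calls deviated in the direction of the call, and the junction share was the higher one in 20 of 20 settings. Among calls with a difference larger than 2, 25.3% of exon parts and 47.2% of junctions were isolated. Isolated exon parts had a median difference of 1.68 when higher and -1.59 when lower, and isolated junctions 2.24 and -2.13. The probe set next to a called one was called in the same direction in 37.9% of cases for exon parts and 24.9% for junctions, and at a distance of 50 IDs in 14.2% and 14.1%.

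**Figure D2:**
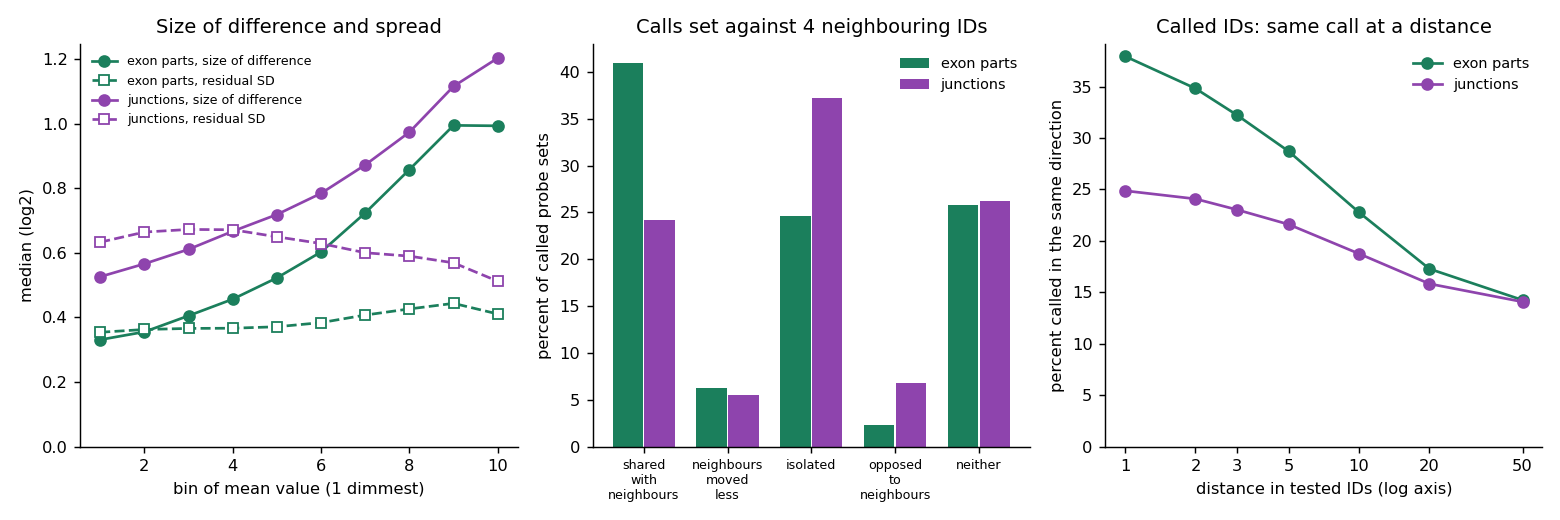
Left: median size of the 231T minus control difference and median residual SD (log2) by bin of mean value, from dim to bright; junctions lie above exon parts in both in 10 of 10 bins. Middle: percent of called probe sets in each relation to their 4 neighbours (40.9% of exon parts and 24.2% of junctions shared, 24.7% and 37.2% isolated). Right: percent of called probe sets whose counterpart at a given distance in tested IDs (log axis) was called in the same direction.

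Shared changes formed long runs of consecutive IDs called in one direction. There were 7739 runs of at least 3 exon parts (4913 higher, 2826 lower), which held 36.6% of the calls, and 3061 runs of junctions (1688 higher, 1373 lower), which held 19.1%. The longest was a run of 53 lower exon parts of MUC5B, a gel-forming mucin, with a median difference of -6.49 and a median deposited value of 13.2 in control, 13.9 in PTX and 4.71 in 231T. Other long lower runs covered 24 exon parts (median -3.17), of which 16 belong to EHD2, a protein of caveolae, and the others carry the symbols GLTSCR2 and SNORD23, and 19 junctions of ITGA3 (-2.58), an integrin subunit that binds laminin. Junction runs of 12 IDs were lower for TNS4 (-6.73), a tensin of focal adhesions, for LRP5 (-3.72), a Wnt co-receptor, and for STAT2 (-3.11), a transcription factor of interferon signalling. The longest higher run held 40 exon parts of THBS1 (3.68), the matrix protein thrombospondin 1. It was followed by 29 of ATP13A3 (3.69), a polyamine transporter, and 28 of JAG1 (2.26), a Notch ligand. The helicase DHX9 was covered by 24 exon parts (3.37) and 15 junctions (2.81), and SMG1, a kinase of nonsense-mediated decay, by 24 exon parts (2.97).

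Single probe sets that deviated from their neighbours had large differences. Exon part PSR14007274 of SERPINA5, a serpin that inhibits protein C, read 4.51, 4.42 and 3.98 in control and 11.21, 11.97 and 13.43 in 231T (difference 8.31, SE 0.64, limma adjusted p = 1.1e-04). Its 4 neighbours, all of SERPINA5, had a median difference of 0.24. Junction JUC15009419 of FSD2 read 5.93, 4.98 and 4.48 in control and 14.7, 14.7 and 16.8 in 231T (difference 10.69, SE 0.58, limma adjusted p = 4.3e-05), with neighbours at -0.45. For both, the gene's adjoining probe sets stayed uncalled, and the control and 231T arrays were far apart. The adjoining SERPINA5 probe sets were near the filter value, with deposited group means of 4.11 to 4.59 in control and 3.79 to 4.66 in 231T. Those of FSD2 were at 3.85 to 6.85 in control and 4.385 to 6.22 in 231T. Whether the rest of either transcript was present was not tested, so neither rise can be read as a change within an unchanged transcript. The lowest ones, given next, were not isolated as defined above. The fall of their neighbours was itself called (limma adjusted p = 9.1e-05 and 4.2e-05 in turn). Junction JUC12006072 of UBE3B, a ubiquitin ligase, read 13.999, 16.51 and 14.96 in control and 5.11, 5.14 and 4.14 in 231T (difference -9.95, SE 1.22, limma adjusted p = 6.2e-04), with neighbours at -2.70. Exon part PSR11029837, without a symbol, read 15.2, 14.5 and 16.4 in control and 4.83, 4.17 and 4.58 in 231T (difference -10.41, SE 0.56, limma adjusted p = 4.1e-05), with neighbours at -5.63. These probe sets are the extremes of each class and direction among those that deviated, so their size reflects the choice.

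At the level of genes, the exon-part median was called for 3985 of 17203 genes higher (23.2%) and for 2982 lower (17.3%), and the junction median for 2646 of 15120 higher (17.5%) and 2117 lower (14%). Of the 14957 genes with both, 2166 were higher and 1366 lower in both classes, and 61 were called in opposite directions. The difference between both medians was called for 1448 of these genes (9.68%), with the junctions moving up relative to exon parts in 580 (3.88%) and down in 868 (5.8%). This count fell to 515 without control replicate 3 and to 543 without control replicate 1 (940 without control replicate 2 and 864 without 231T replicate 2), and 578 of the calls were shared in the same direction by the median of levels. At the gene level 20.4% of 50646 probe sets were called, 5659 higher (11.2%) and 4680 lower (9.24%). For PTX against control, 4.92% of exon-part medians (0.86% higher) and 1.49% of gene-level probe sets (0.326% higher) were called.

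SR and SR-like factors, the family of TRA2A, were mostly higher. Of 11 genes with enough probe sets, 9 were called higher in the exon-part median and 1 lower, and 9 were called higher in the junction median and 1 lower. TRA2A, the gene that the vector carries, is 1 of the 9. Over all genes 23.2% of exon-part medians were called higher and 17.3% lower, and 17.5% and 14% of junction medians. The median difference of the list was 1.97 for exon parts, against -0.03 over all genes, and 1.81 for junctions, against 0.00 over all genes. SRSF1, a general splicing activator and an oncoprotein, had gene-level values of 8.13, 8.78 and 8.60 in control, 10.7, 9.38 and 9.02 in PTX and 11.7, 11.6 and 11.4 in 231T. Its 231T arrays lay above all other arrays. Its exon-part median rose by 3.29 (SE 0.33, limma adjusted p = 2.7e-05) and its junction median by 4.04 (SE 0.40, limma adjusted p = 2.4e-05). TRA2B rose by 1.97 (SE 0.20, limma adjusted p = 3.2e-05) and 1.95, SRSF6 by 2.45 and 2.06, SRSF7 by 2.16 and 1.81, and SRSF3 by 2.06 and 2.71. With the median of levels 6 junction medians of the list were higher and 1 lower. The junction calls of TRA2B (0.89, limma adjusted p = 0.057), SRSF7 (0.58, limma adjusted p = 0.18) and SRSF10 (1.21, limma adjusted p = 0.052) were lost. SRSF10, SRSF11 and SRSF5 rose by 1.76, 1.77 and 1.09 in the exon-part median. The exceptions were SRSF12, a repressor of splicing with SR domains, whose junction median fell by 1.53 (limma adjusted p = 0.0043) on 4 junctions, and SRSF4, whose exon-part median fell by 0.36 (limma adjusted p = 0.041). At the gene level SRSF12 lay at 3.74 to 3.82 in control and 231T, near the filter value of 3.71, and was not called (0.08, limma adjusted p = 0.54). Of its 8 exon parts 1 was higher and 0 lower. SRSF4 had 2 exon parts called higher and 5 lower of 21, and the sign of its median turned to 0.71 when levels rather than deviations were summarised.

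Within the SR genes other than TRA2A, exon-part calls mostly went with their neighbours, whereas the largest share of junction calls was isolated. Of 127 called exon parts, 120 were higher, 72.4% went with their neighbours and 14.2% were isolated. Of 57 called junctions, 50 were higher, 33.3% went with their neighbours and 49.1% were isolated. Over all calls, 40.9% of exon parts were shared and 24.7% isolated. For all junctions these shares were 24.2% and 37.2%, so isolated calls were the largest group there too. In the list of hnRNP and other splicing regulators they were 74.5% and 14.2% for exon parts, and 48% and 30.9% for junctions. TRA2A itself had 9 called junctions, of which 0 were isolated. SRSF10, which can repress splicing when dephosphorylated, had adjoining junctions that moved in opposite directions. Junction JUC01019584 read 11.5, 13.3 and 13.1 in control, 10.5, 10.2 and 10.5 in PTX and 4.14, 5.26 and 7.27 in 231T (difference -6.64, SE 0.74, limma adjusted p = 4.2e-04). Junction JUC01019586 read 12.7, 12.7 and 13.1 in control and 17.0, 17.5 and 17.5 in 231T (difference 4.90, SE 0.26, limma adjusted p = 3.8e-05), and JUC01019583 rose by 3.66 (limma adjusted p = 1.6e-04). The 231T and control arrays did not overlap in these 3 junctions, and each was opposed to its neighbours. In TRA2B, exon part PSR03036880 read 10.25, 10.95 and 11.05 in control and 14.1, 14.1 and 13.1 in 231T (difference 3.44, SE 0.48, limma adjusted p = 0.0011), while its neighbours fell by 1.01.

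Among hnRNP and other splicing regulators, 10 of 17 genes were higher and 1 lower in the exon-part median (list median 1.11), and 8 were higher and 1 lower in the junction median (list median 0.70). Over all genes 23.2% of exon-part medians were called higher and 17.3% lower, and 17.5% and 14% of junction medians. HNRNPM, an RNA-binding protein linked to mesenchymal splicing, read 12.3, 13.5 and 13.2 at the gene level in control, 15.53, 15.32 and 14.96 in PTX and 15.5, 15.3 and 15.6 in 231T. The 231T arrays lay at the level of the PTX arrays and above control. Its exon-part median rose by 3.06 (SE 0.25, limma adjusted p = 9.9e-06) and its junction median by 2.17 (SE 0.25, limma adjusted p = 5.3e-05), a difference of -0.89 between classes (limma adjusted p = 0.010). HNRNPA2B1 rose by 2.35 and 2.39, RBM39, a cofactor of splicing and transcription, by 2.02 and 1.40, HNRNPH1 by 1.65 and 1.09 and RBFOX2 by 1.11 and 1.43 (the latter 0.87, limma adjusted p = 0.057, with the median of levels). MBNL2, of the muscleblind family, was the gene that fell, by 0.96 in the exon-part median (limma adjusted p = 0.028) and by 0.94 in the junction median (limma adjusted p = 0.025). Each of these calls was lost under 6 of 15 alternatives, and the junction value turned to 0.03 with the median of levels. ESRP1 and ESRP2, regulators of epithelial splicing, were not called, with exon-part differences of -0.06 and -0.32. HNRNPC, not called in either median, had junction JUC14005013 at 18.01, 17.36 and 18.01 in control and at 14.1, 13.5 and 13.6 in 231T (difference -3.65, SE 0.31, limma adjusted p = 1.5e-04) among neighbours that rose by 0.99. In HNRNPM, junction JUC19001417 fell by 2.93 (limma adjusted p = 5.7e-04) among neighbours that rose by 2.46.

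**Figure D3:**
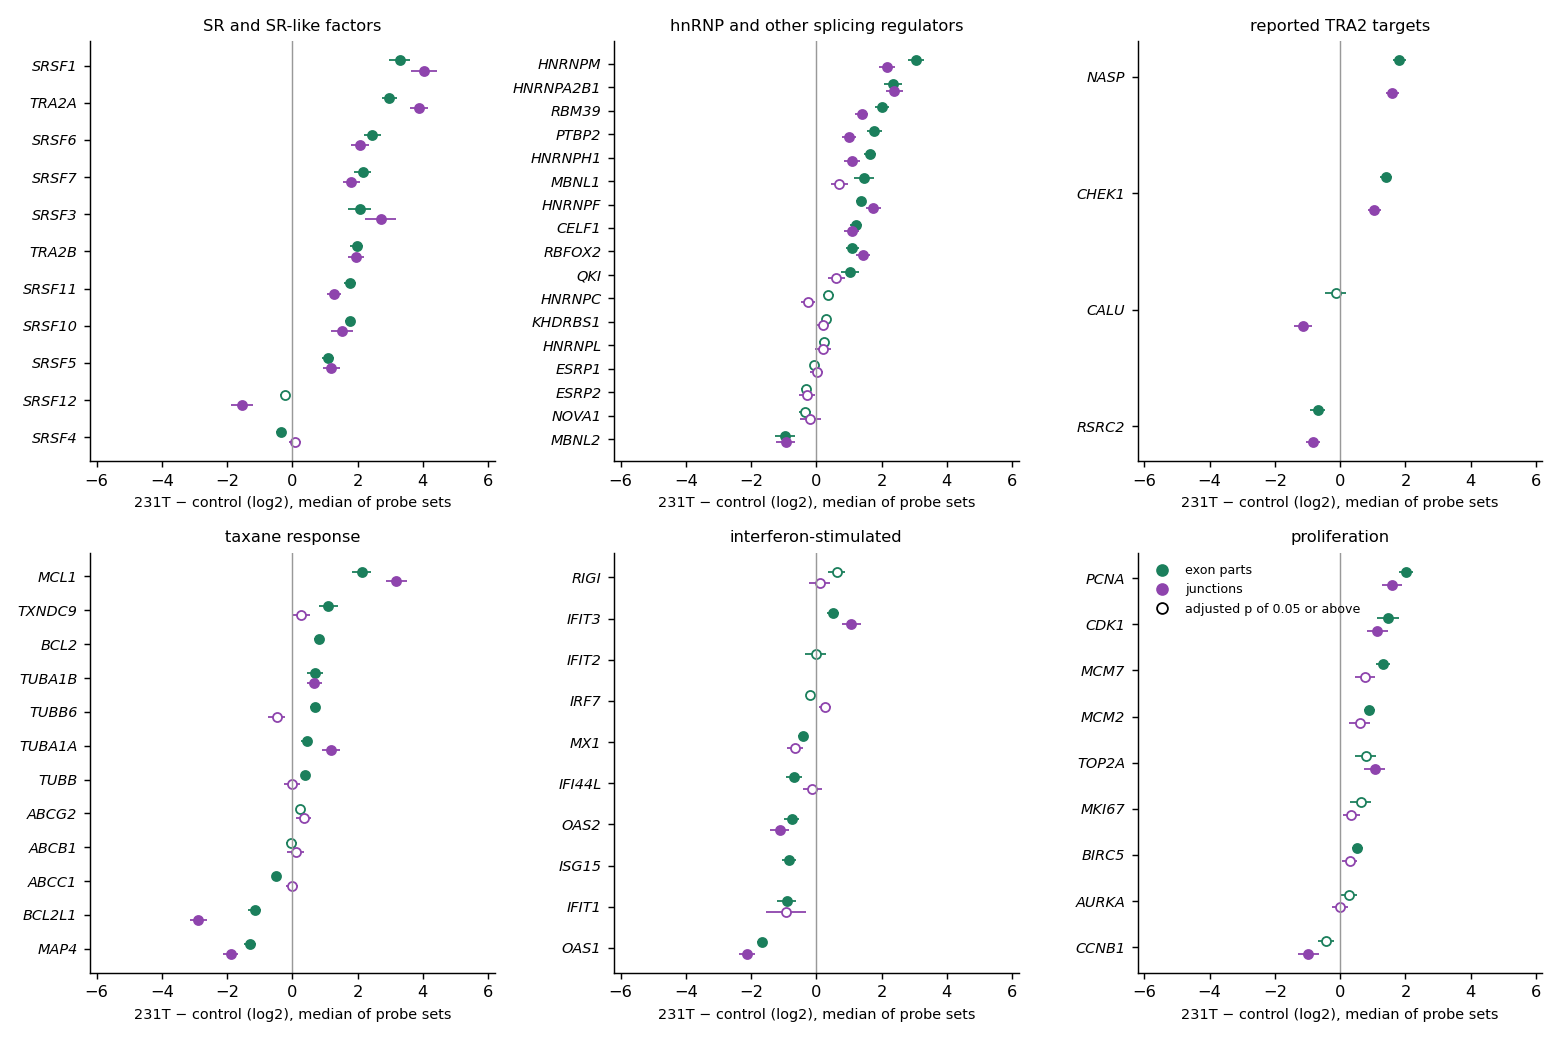
Difference 231T minus control (log2, x axis, error bars 1 SE) of the exon-part and junction medians of each gene of 6 lists, with open symbols for a limma adjusted p of 0.05 or above. Of the SR and SR-like factors, 9 of 11 are higher in the exon-part median (23.2% over all genes). Of the interferon-stimulated genes 6 of 10 are lower (17.3% over all genes).

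Genes reported elsewhere as targets of TRA2 proteins showed both shared and single changes. NASP, a histone chaperone, and CHEK1, a kinase of the DNA damage checkpoint, were higher as genes, by 1.81 (SE 0.20, limma adjusted p = 5.3e-05) and 1.40 (SE 0.19, limma adjusted p = 2.0e-04) in the exon-part median. Of NASP, 24 of 32 exon parts were higher and 0 lower, and 12 of 22 junctions were higher and 1 lower. Its junction JUC01004977 read 15.3, 14.5 and 14.1 in control and 19.2, 19.2 and 19.1 in 231T (difference 4.93, SE 0.34, limma adjusted p = 7.7e-05). Of CHEK1, 14 of 28 exon parts were higher and 0 lower, and 8 of 19 junctions were higher and 2 lower. These 2 junctions fell amid rising neighbours. JUC11019332 read 8.03, 7.78 and 8.71 in control and 5.16, 4.82 and 5.23 in 231T (difference -2.70, SE 0.30, limma adjusted p = 4.0e-04), and JUC11019336 read 14.40, 12.80 and 14.01 and then 11.9, 11.2 and 9.32 (difference -2.51, SE 0.66, limma adjusted p = 0.021). Their neighbours rose by 2.05 and 2.70.

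RSRC2, a protein rich in arginine and serine, was lower in the exon-part median by 0.68 (SE 0.23, limma adjusted p = 0.032) and in the junction median by 0.83 (limma adjusted p = 0.010). The first was near 0 (-0.07) when levels rather than deviations were summarised, and its call was lost under 7 of 15 alternatives. At the gene level RSRC2 was not called (-0.40, limma adjusted p = 0.17). Of its 18 exon parts 6 were lower and 1 higher. The higher one, PSR12027356, read 7.15, 7.36 and 5.58 in control, 8.43, 7.74 and 8.61 in PTX and 9.15, 9.41 and 8.67 in 231T. The 231T arrays lay above both other groups, and the difference was 2.79 (SE 0.47, limma adjusted p = 0.0027), while its neighbours fell by 1.25. The tested exon part next to it, PSR12027354, read 12.02, 11.84 and 11.96 in control and 9.40, 9.69 and 9.82 in 231T (difference -1.90, SE 0.27, limma adjusted p = 0.0013). CALU, a calcium-binding protein of the secretory pathway, had 1 exon part called higher and 1 lower of 22, but 7 of 17 junctions called lower and 1 higher. Its junction median fell by 1.15 (SE 0.29, limma adjusted p = 0.0089) with an exon-part median at -0.14, and the classes differed by -1.001 (limma adjusted p = 0.013). The control mean exceeded 16 for 10 of the 22 exon parts and 3 of the 17 junctions, and its part in this difference was not tested. The junction median was as low in PTX, at -0.40 against -0.37 in 231T and 0.77 in control. At the gene level CALU was not called (-0.29, limma adjusted p = 0.65). Junction JUC07005771 of CALU read 12.5, 12.1 and 13.2 in control and 9.15, 9.68 and 9.89 in 231T (difference -2.62, SE 0.43, limma adjusted p = 0.0023).

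In the list of genes tied to the taxane response, 7 of 12 were higher and 3 lower in the exon-part median (list median 0.41), whereas the median of levels gave 3 higher and 4 lower. By the median of deviations, 23.2% of exon-part medians over all genes were called higher and 17.3% lower. MAP4, which binds and stabilises microtubules, was lower by 1.298 (SE 0.18, limma adjusted p = 2.2e-04) in the exon-part median and by 1.88 (SE 0.23, limma adjusted p = 8.7e-05) in the junction median. Of its probe sets, 28 of 50 exon parts were lower and 4 higher, and 29 of 37 junctions were lower and 2 higher. Its junction JUC03011825 read 13.2, 12.5 and 13.7 in control and 7.22, 7.12 and 7.19 in 231T (difference -5.56, SE 0.59, limma adjusted p = 3.5e-04). Junction JUC03011835 went the other way, from 7.36, 5.95 and 6.63 to 8.32, 8.54 and 7.98 (difference 2.04, SE 0.37, limma adjusted p = 0.0038), among neighbours that fell by 1.40. Exon parts of MAP4 were lowest around PSR03023668, which fell by 4.45 (limma adjusted p = 5.2e-04), and PSR03023686 rose by 2.18 (limma adjusted p = 0.0013).

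**Figure D4:**
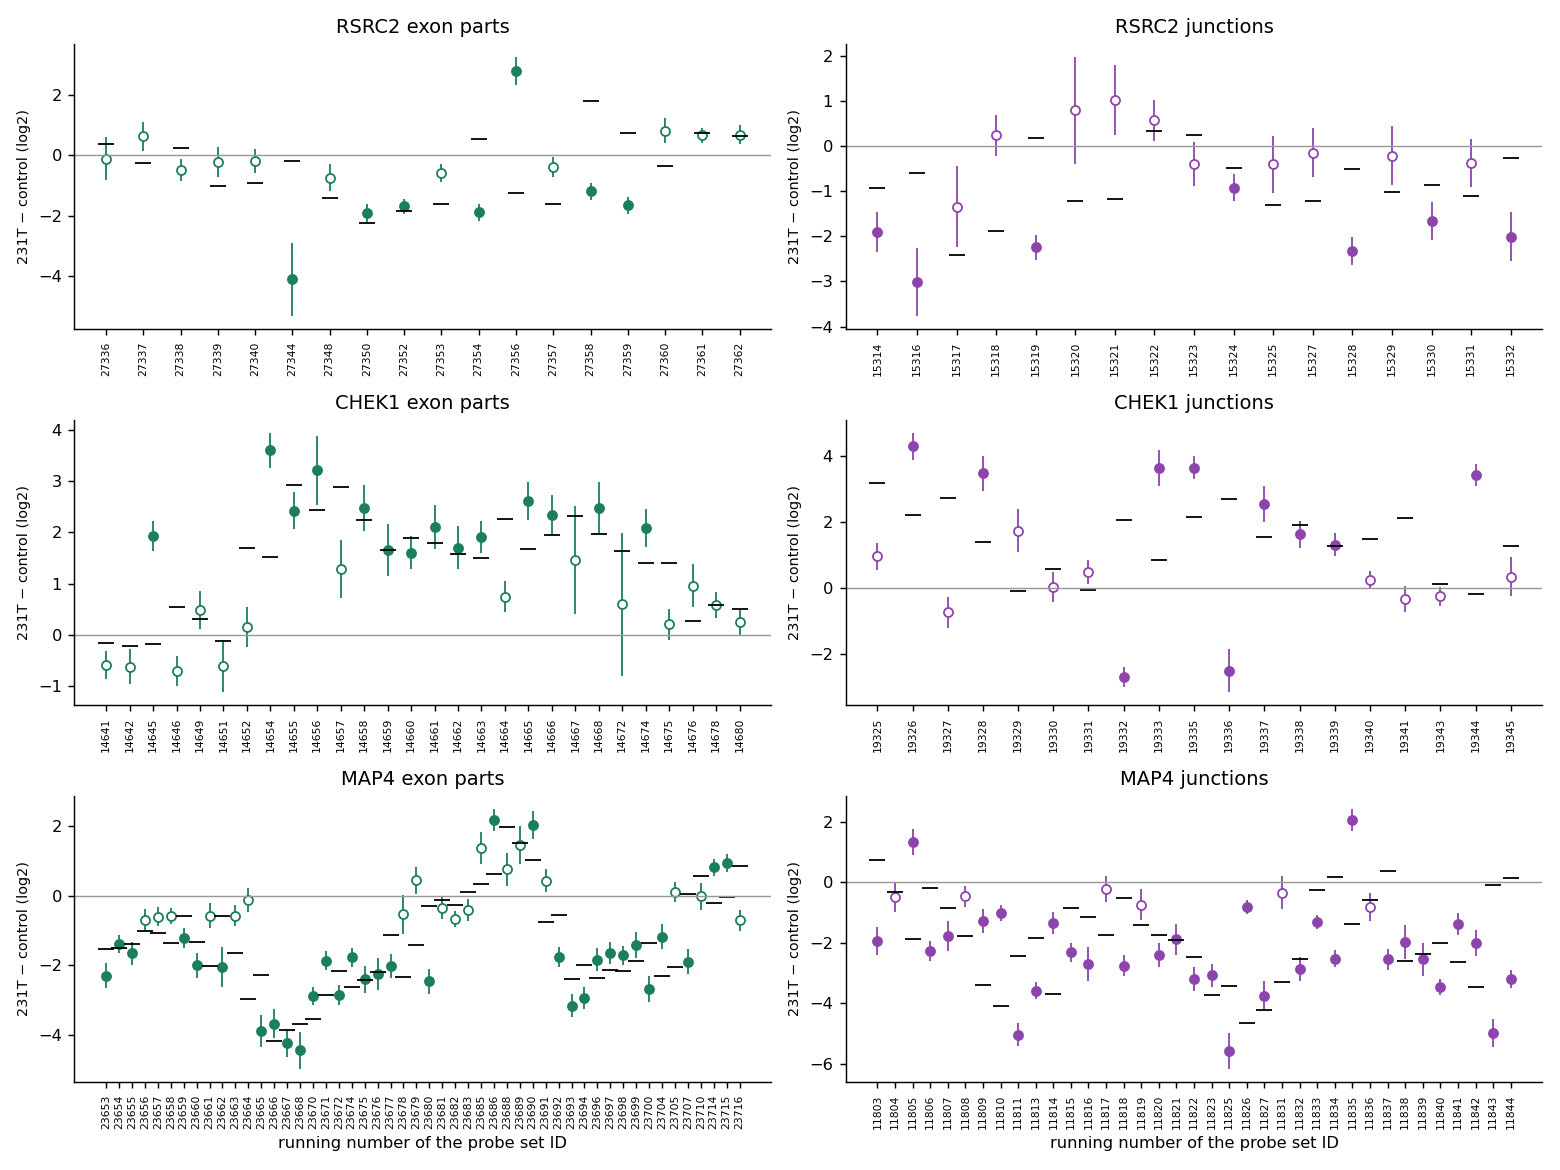
Difference 231T minus control (log2, y axis, error bars 1 SE) of every tested exon part (left) and junction (right) of RSRC2, CHEK1 and MAP4, in order of running number (x axis). Filled symbols are called at a limma adjusted p under 0.05, and the dash is the change of the 4 neighbouring IDs; PSR12027356 of RSRC2 rises by 2.79 and JUC11019332 of CHEK1 falls by 2.70 against their neighbours.

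The anti-apoptotic genes of the taxane list moved in different directions. MCL1 rose by 2.13 (SE 0.29, limma adjusted p = 2.0e-04) and BCL2 by 0.81 (limma adjusted p = 7.6e-04) in the exon-part median, whereas BCL2L1 fell by 1.16 (SE 0.19, limma adjusted p = 5.6e-04). The junctions of MCL1 and BCL2L1 moved further than their exon parts in the same direction, by 3.18 and -2.89, and the classes differed by 1.06 in MCL1 (limma adjusted p = 0.021) and by -1.73 in BCL2L1 (limma adjusted p = 0.0019; -1.03 and 0.12 with the median of levels). At the gene level BCL2L1 read 9.96, 10.0 and 10.1 in control and 8.96, 8.79 and 8.79 in 231T. The drug efflux pump ABCC1 was lower by 0.50 (limma adjusted p = 0.012), and ABCB1 and ABCG2 were not called, at -0.03 and 0.24. TXNDC9 rose by 1.10 (limma adjusted p = 0.012). The exon-part medians of TUBB, TUBB6, TUBA1A and TUBA1B were called higher by 0.39 to 0.70, but most of their exon parts were not called. Of TUBB, 1 of 16 exon parts was higher and 2 lower, and of TUBA1A 3 of 13 were higher and 3 lower. For TUBA1B 1 of 6 and for TUBB6 5 of 12 were higher and 0 lower. At the gene level TUBB and TUBA1B had means of 19.2 and 19.9 in both groups, and their differences of 0.08 and 0.10 were not called. The TUBA1A and TUBA1B calls held under 5 and 7 of 15 alternatives. These genes have near-identical copies, and TUBA1A turned to -1.33 when levels were summarised and TUBB to -0.02 without centring.

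Interferon-stimulated genes were more often lower. Of 10 genes 6 were lower and 1 higher in the exon-part median (list median -0.54), and of 8 genes 2 were lower and 1 higher in the junction median. With the median of levels 4 were lower and 0 higher for exon parts, and 1 and 0 for junctions. By the median of deviations, 17.3% of exon-part medians over all genes were called lower and 23.2% higher, and 14% and 17.5% of junction medians. OAS1, which makes the second messenger that activates RNase L, fell by 1.67 (SE 0.14, limma adjusted p = 1.0e-05) and 2.12 (SE 0.23, limma adjusted p = 4.2e-05), with gene-level values of 5.88, 5.96 and 6.07 in control, 6.13, 5.83 and 6.22 in PTX and 4.75, 4.60 and 4.96 in 231T. It was the 1 gene of this list that was also called at the gene level. IFIT1, which binds foreign RNA, fell by 0.90 (limma adjusted p = 0.030) on 5 exon parts, and IFIT3 rose by 0.52 (limma adjusted p = 0.040), a call that was lost under 12 of 15 alternatives. The IFIT1 call was lost under 6 of 15, and those of IFI44L, MX1 and OAS2 under 9, 5 and 3 of 15. ISG15 changed sign under 1 of 14, and OAS1 kept its call under 15 of 15. Apart from OAS1, the lower genes lay near the gene-level filter value of 3.71. Their gene-level means were 4.55 to 4.84 in control and 3.88 to 4.40 in 231T. Interferon acts through a complex that binds a promoter element, so the 250 bases before the start of each gene were searched on both strands for an interferon-stimulated response element, written as GAAA, a pair of any bases and GAAA again (RefSeq, GRCh38.p14). It was found in 4 of the 6 promoters of this list that the table held, those of IFIT1, IFIT3, ISG15 and IFI44L, against 3.02% of 35116 promoters, and not in those of MX1 and OAS1. The promoter of IFIT1 is shown for its matches, which are in capitals (chr10:89392373-89392622, plus strand).
IFIT1: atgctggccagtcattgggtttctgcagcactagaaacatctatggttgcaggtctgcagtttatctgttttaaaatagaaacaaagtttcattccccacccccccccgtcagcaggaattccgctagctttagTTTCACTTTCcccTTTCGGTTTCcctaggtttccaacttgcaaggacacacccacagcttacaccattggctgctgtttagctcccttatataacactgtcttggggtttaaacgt

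Of 9 proliferation genes, 5 were higher and 0 lower in the exon-part median (list median 0.78), and 3 were higher and 1 lower in the junction median. Over all genes 23.2% of exon-part medians were called higher and 17.3% lower, and 17.5% and 14% of junction medians. PCNA, the sliding clamp of DNA replication, rose by 2.02 (SE 0.22, limma adjusted p = 5.3e-05), CDK1, the mitotic kinase, by 1.45 and MCM7 and MCM2, subunits of the replicative helicase, by 1.32 and 0.89. BIRC5 rose by 0.52 (limma adjusted p = 0.025), a call that was lost under 6 of 15 alternatives. TOP2A, MKI67, AURKA and CCNB1 were not called in the exon-part median, with differences of 0.78, 0.63, 0.27 and -0.44. With the median of levels, TOP2A (1.21, limma adjusted p = 0.019) and MKI67 (0.79, limma adjusted p = 0.027) were called higher. By the median of deviations, the junctions of TOP2A rose by 1.06 (limma adjusted p = 0.024) and those of CCNB1 fell by 0.98 (limma adjusted p = 0.039). The junction calls were lost under 4 and 6 of 15 alternatives. In such bulk samples, fewer cells that express a gene and less of its RNA per cell cannot be told apart.

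In each of the genes with the largest gene-level differences, at least 66.7% of the tested exon parts and 50% of the tested junctions, where it had any, were called in the gene's direction. Over all exon parts 13.4% were called higher and 10.6% lower, and over all junctions 13.6% and 12.7%. The genes were chosen by their difference in the same samples, so high shares follow from the choice. For the small RNA genes among them the share rests on 1 exon part each. TFRC, the transferrin receptor, read 7.27, 7.66 and 7.48 in control, 8.49, 7.46 and 7.91 in PTX and 12.6, 12.7 and 12.1 in 231T (difference 5.07, SE 0.30, limma adjusted p = 1.4e-04). Of its probe sets, 28 of 36 exon parts and 18 of 24 junctions were higher and 0 lower. CDC6, which loads the replicative helicase onto origins, read 7.26, 8.26 and 8.44 in control, 10.0, 9.62 and 9.37 in PTX and 11.8, 12.1 and 12.1 in 231T (difference 4.10, SE 0.31, limma adjusted p = 2.4e-04). The order of the groups was the same on every array, and 14 of 16 exon parts and 11 of 11 junctions were higher. Its promoter is shown because E2F factors are known to act on it. It holds 1 match, in capitals, to TTTNGCG, which 4.32% of 35116 promoters and 1 of the 7 proliferation genes in the table (MCM7) hold (chr17:40287629-40287878, plus strand).
CDC6: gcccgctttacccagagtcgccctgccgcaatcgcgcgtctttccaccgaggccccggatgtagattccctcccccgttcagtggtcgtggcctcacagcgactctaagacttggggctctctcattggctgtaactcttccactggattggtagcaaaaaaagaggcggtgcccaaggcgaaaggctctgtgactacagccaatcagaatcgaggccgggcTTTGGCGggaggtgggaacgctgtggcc

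The other genes among the 10 highest were TFPI2 (3.55), an inhibitor of serine proteases in the matrix, THBS1 (3.42), the cystine transporter SLC7A11 (3.37), NEMP1 (3.34), a protein of the nuclear envelope, ZWILCH (3.33), a kinetochore protein, the proteasome subunit PSMC2 (3.32) and the chemokines CXCL8 (3.33, limma adjusted p = 0.017) and CCL2 (3.30, limma adjusted p = 0.018). The chemokines varied most within 231T. CXCL8 read 8.41, 9.49 and 5.91 there against 4.69, 4.59 and 4.80 in control, and CCL2 read 14.2, 14.6 and 11.6 against 9.95, 10.7 and 10.2. 231T replicate 3 was the lowest for both, and each passed the threshold under 8 of 12 alternatives.

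Among the 10 lowest, TNS4 read 10.9, 10.9 and 11.3 in control, 9.18, 8.38 and 10.4 in PTX and 4.89, 4.98 and 5.08 in 231T (difference -5.98, SE 0.43, limma adjusted p = 2.0e-04), and 18 of 19 exon parts and 12 of 13 junctions were lower. ITGB4, the integrin subunit of hemidesmosomes, read 10.0, 9.73 and 10.1 in control, 8.53, 8.33 and 8.78 in PTX and 5.50, 5.58 and 5.46 in 231T (difference -4.37, SE 0.15, limma adjusted p = 5.1e-05), with 39 of 44 exon parts and 32 of 41 junctions lower. Both were lowest in 231T on every array. IGFBP4 (-4.69), a binding protein of insulin-like growth factors, CST4 (-4.24), a secreted cystatin, and CREB3L1 (-4.23), a transcription factor of the secretory pathway, were also among them. The remaining 5 are small RNA genes or copies of them, namely RNU5D-2P (-6.08), MIR3143 (-5.65), SNORD58C (-5.11), SNORD99 (-4.61) and RNU5E-2P (-4.15). These have close copies in the genome or lie within host genes, so their probe sets may read other RNA. MIR3143 was lower in PTX as well, by -5.76 (limma adjusted p = 0.0052), with 7.03, 6.81 and 7.68 there and 6.992, 7.533 and 7.001 in 231T.

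**Figure D5:**
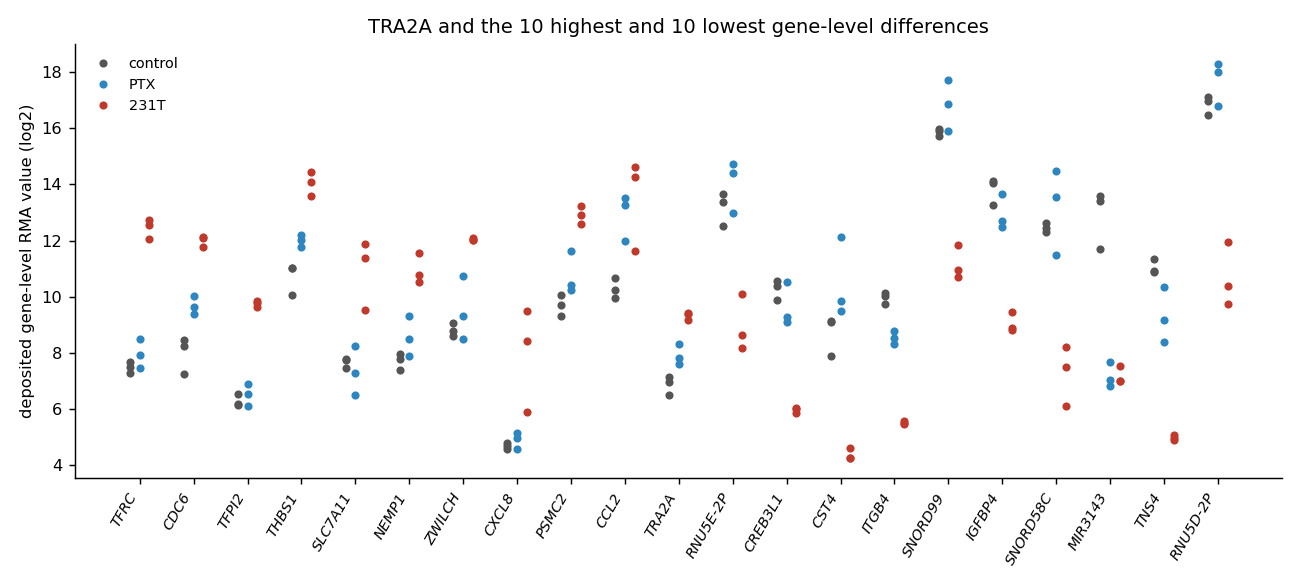
Deposited gene-level RMA values (log2, y axis) of TRA2A and of the called genes with the 10 highest and 10 lowest differences (x axis) on every control, PTX and 231T array. TFRC lies at 12.1 to 12.7 in 231T and at 7.27 to 7.66 in control, and TNS4 at 4.89 to 5.08 and at 10.9 to 11.3.

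Markers of the labelled line were checked at the gene level. VIM, a mesenchymal filament protein, lay between 13.1 and 13.2 on all 6 arrays, and ESR1, PGR and CDH1, markers of luminal epithelium, between 3.49 and 3.98. Other genes of the luminal list were bright: KRT18 lay between 12.01 and 12.9 and KRT8 (TC12001539) between 11.9 and 12.8, while GATA3 and EPCAM lay between 5.71 and 5.98 and between 4.66 and 4.94. The luminal keratin KRT19 read 8.64, 9.03 and 8.54 in control and 6.90, 6.62 and 6.87 in 231T, and its exon-part median fell by 2.37 (SE 0.16, limma adjusted p = 4.7e-06). It was the 1 luminal gene of 9 that was called, and 0 were higher. Of 9 markers of basal-like mesenchymal cells 2 were higher, CD44 by 1.297 (limma adjusted p = 1.2e-04) and FN1 by 0.94 (limma adjusted p = 0.012), and 2 were lower, AXL by 0.76 (limma adjusted p = 0.0088) and KRT17 by 0.65 (limma adjusted p = 0.0018). Over all genes 23.2% of exon-part medians were called higher and 17.3% lower, which is near the shares of this list. Of 5 fibroblast markers 0 were called by limma and 1 had an unadjusted p under 0.05, and of 3 leukocyte markers CD14 was called in opposite directions, lower by 0.56 (limma adjusted p = 0.041) in 5 exon parts and higher by 1.33 (limma adjusted p = 0.031) in 3 junctions, with gene-level values of 3.65 to 3.96. The part of these markers in the other results was not tested.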

How the data were processed

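Total RNA of 3 groups with 3 samples each was hybridised to Affymetrix arrays, and the 9 samples each have an exon-level and a gene-level record. The authors deposited log2 values for both. Per the submitters' processing notes, these were RMA values from Affymetrix Expression Console 1.3.1. The sources used here name neither a genome build nor the normalization runs.

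Probe sets with a mean under the 25th percentile (3.89 exon-level, 3.71 gene-level) were left out, and each array was centred on its median. limma 3.58.1 in R 4.3.3 fitted the 3 groups together (lmFit and eBayes, 9 arrays), with Benjamini-Hochberg adjustment and a threshold of 0.05, to which "called" refers. The number of arrays limits the precision. For neighbours, probe sets identical on all arrays were collapsed, which left 647447. The fit was tested on simulated data.

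Gene symbols came from GEO's platform annotation, with 520435 of the tested probe sets having 1 symbol, 30847 several and 133509 none. Of 21022 symbols 18634 stood in RefSeq and 2318 were synonyms there. Named genes are TRA2A, the 10 highest and 10 lowest called gene-level genes whose groups did not overlap, the listed genes, and the highest and lowest deviating probe set of each class whose group means lay between the filter and 16. Probe sets within named genes, and runs, were chosen after their values were seen. The members and lists were chosen with earlier results of these data known.

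The gene summary was not part of the design and was run in 2 versions. The first took the median of a gene's probe set levels. After its results were seen, it was replaced by the median of the deviations of each probe set from its own mean, because it gave genes such as SPARC and HNRNPL a direction that their own probe sets did not show. The first is kept as an alternative. Other alternatives were other scales, filters, neighbours, arrays left out and a replicate block.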

Additional observations from a re-analysis of the deposited data

Results flagged for a closer look

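TRA2A was also higher in PTX, cells that no label describes as carrying the TRA2A vector and that are neither side of the comparison. Its exon-part median rose by 1.303 over control (SE 0.24, limma adjusted p = 0.013), to 0.31, -0.18 and -0.41 on the PTX arrays against -1.82 to -1.12 on the control arrays, higher on 3 of 3. Over all genes 0.86% were called higher in PTX. At the gene level the difference was 1.03 and did not pass the threshold (limma adjusted p = 0.079).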

How the results depend on the processing

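Of 119 called results for named genes and probe sets, 78 kept call and direction under every alternative run for them, 41 lost the call under at least 1, and 5 of these changed sign. The summary of a gene's probe sets mattered most among choices made after the data were seen. The first version run, the median of levels, called 3230 genes higher and 2244 lower for exon parts, 1771 and 1746 for junctions and 637 and 1122 for the difference of both, against 3985 and 2982, 2646 and 2117, and 580 and 868. Both versions shared 4674, 2662 and 578 calls in the same direction, with 7, 13 and 13 opposite. For exon parts the median of levels called 9 SR genes higher and 0 lower, 10 and 1 hnRNP genes, 3 and 4 taxane genes, 0 and 4 interferon genes, 7 and 0 proliferation genes and 2 and 2 basal genes. It reversed the exon-part medians of SRSF4 (0.71), TUBA1A (-1.33), ISG15 (0.0325) and HNRNPL (-0.96) and the junction medians of MBNL2 (0.0337) and AURKA (1.25); it called SPARC higher by 1.32 with 1 exon part higher and 2 lower of 21. Other reversals were of values near 0: without centring TUBB was at -0.0169, HNRNPL at -0.18, SPARC at -0.34 and the TXNDC9 junctions at -0.14; the SPARC exon-part median was at -0.00952 after quantile normalization. Leaving out 1 array gave -0.0213 (without control replicate 2) to 0.187 for SPARC, -0.0769 to 0.0835 for the AURKA junctions (above 0 without control replicate 3 or 231T replicate 1) and -0.0237 (without 231T replicate 1) to 0.583 for the TXNDC9 junctions. The cause was not tested.

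Without centring 11665 gene medians of exon parts were called. The 75th percentile filter, with fewer probe sets tested, gave 110469 calls, 64658 of them exon parts; at the 50th and 75th percentiles the class difference was -0.142 and -0.207 and 10 codes were called at each. With neighbours of the same symbol, 18773 exon parts and 18607 junctions deviated. Leaving out 1 array gave 116511 to 176557 called probe sets, 69845 to 107551 exon parts, 46666 to 69006 junctions, a class difference of -0.050 to -0.016 with 0 to 1 codes, 16256 to 33126 deviating exon parts (neighbours changed 29693 to 49701), 18163 to 31741 deviating junctions (11005 to 19531), 5417 to 7668 and 3472 to 5059 gene medians, 515 to 1536 differences of both and 6620 to 11143 gene-level calls. Deviating exon parts fell by over 1.5 times without control replicate 1 (16838), control replicate 2 (21057), control replicate 3 (16256), 231T replicate 1 (20420) or 231T replicate 2 (18756), and gene-level calls without control replicate 3 (6620) or 231T replicate 2 (6734). The differences of both medians fell to 543, 940, 515 and 864 without control replicates 1, 2 and 3 and 231T replicate 2. Same-numbered arrays did not deviate together (r = -0.055, -0.031 and -0.019). With the replicate number as a block 146472 probe sets (87274 exon parts and 59198 junctions), 24078 and 26118 deviating ones, 39719 and 15850 with changed neighbours, 6451, 4324 and 1052 gene medians and 8636 gene-level probe sets were called, and the class difference stayed at -0.031 with 0 codes. The block ended the exon-part calls of SRSF4, IFIT3, MX1 and CD14 and the junction calls of TUBA1B, CCNB1, FN1 and CD14, and no other of these.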
